A study of Mus musculus with 10 samples.

Results

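The nuclear genes of respiratory complexes III, IV and V were examined in RNA sequencing of epididymal white adipose tissue, the visceral fat depot that lies beside the epididymis of male mice. They were chosen by name, as the protein-coding genes of GENCODE mouse release M21 whose symbols start with Uqcr, Atp5 or Cyc1, or with Cox followed by a digit. Of the 26040 Ensembl identifiers in the deposited count table, 51 met this rule. They comprised 9 subunits of complex III, 17 subunits of complex IV, 9 assembly factors of complex IV and 16 genes of complex V. Another 3 annotated identifiers of these names (Atp5k, Cox6b1 and a second identifier for Atp5o) were not analysed here. The Ad-Sucnr1 KO group (KO from here on) held 5 C57BL/6 mice that lack the succinate receptor gene Sucnr1 in adipocytes, as replicates 2 to 6. The Sucnr1fl/fl group (control) held 5 C57BL/6 mice with floxed Sucnr1 alleles, also numbered 2 to 6. The sources used here name no Cre driver, age or diet. The question is whether transcripts of the last steps of respiration differ once adipocytes lack the receptor.

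Complex III takes electrons from reduced coenzyme Q and passes them to cytochrome c, and complex IV, cytochrome c oxidase, passes them on to oxygen. Both pump protons across the inner mitochondrial membrane, and complex V, the ATP synthase, uses their return to make ATP. Most subunits are encoded in the nucleus and are imported, whereas the catalytic core of complex IV, cytochrome b of complex III and part of the proton channel of complex V are encoded in mitochondrial DNA. White adipocytes hold fewer mitochondria than brown adipocytes, and their respiration supplies ATP for lipid synthesis and for the cycling of fatty acids.

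Many nuclear respiratory genes are known to carry sites for nuclear respiratory factor 1 (NRF1) and for ETS family factors such as GABP close to their start sites. The promoters are shown because the members share a function and not a chromosome. RefSeq promoters of build GRCm38.p6, running from 250 bases before to 50 bases after the start, were matched to 38 of the 51 genes. An NRF1 motif, CGCNTGCGC on either strand, was found in at least 1 promoter of 9 of these 38 genes (23.7%), against 1901 of all 27025 genes with a promoter in the table (7.03%). An ETS motif, CCGGAAG on either strand, was found for 13 of 38 genes (34.2%), against 2683 of all these genes (9.93%). Genes with both motifs in 1 promoter numbered 4 of 38 (10.5%), against 370 of all these genes (1.37%). A gene can have more than 1 promoter in the table. These shares are a description with no test, and a match shows the letters and not binding. The 27025 genes were not filtered by gene type or by level in fat, whereas the 38 are protein-coding by the rule. The higher shares are therefore not shown to be particular to respiratory genes. The 3 promoters below hold both motifs and belong to 1 gene of each complex. They lie at chr5:115348909-115349208 for Cox6a1, chr10:80406772-80407071 for Uqcr11 and chr11:115419870-115420169 for Atp5h. All 3 are printed on the minus strand, 5′ to 3′, with the motif matches in capitals.
Cox6a1: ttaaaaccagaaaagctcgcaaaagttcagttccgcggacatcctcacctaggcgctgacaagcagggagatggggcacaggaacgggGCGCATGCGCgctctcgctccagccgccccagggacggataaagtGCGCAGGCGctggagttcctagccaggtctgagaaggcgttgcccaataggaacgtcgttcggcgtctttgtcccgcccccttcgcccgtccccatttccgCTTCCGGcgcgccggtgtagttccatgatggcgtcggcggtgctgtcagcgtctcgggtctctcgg
Uqcr11: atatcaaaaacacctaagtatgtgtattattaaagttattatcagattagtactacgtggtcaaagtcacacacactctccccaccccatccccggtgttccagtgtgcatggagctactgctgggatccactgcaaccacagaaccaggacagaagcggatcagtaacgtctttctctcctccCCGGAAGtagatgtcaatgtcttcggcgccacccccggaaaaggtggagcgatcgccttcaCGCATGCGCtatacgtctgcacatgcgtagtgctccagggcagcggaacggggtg
Atp5h: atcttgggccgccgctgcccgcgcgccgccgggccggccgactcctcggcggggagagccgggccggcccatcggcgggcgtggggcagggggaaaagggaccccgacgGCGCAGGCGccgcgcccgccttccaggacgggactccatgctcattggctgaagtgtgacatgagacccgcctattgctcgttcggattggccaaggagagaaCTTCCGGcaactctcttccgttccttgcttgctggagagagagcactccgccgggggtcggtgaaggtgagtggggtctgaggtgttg
The Cox6a1 promoter holds 3 NRF1 matches and 1 ETS match. Its first capital run holds 2 NRF1 matches that overlap on opposite strands. The other promoters shown hold 1 match of each kind, and in none of the 3 did an NRF1 match overlap an ETS match.

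Total counts per library ranged from 24182798 to 30603326, and 16446 genes had enough counts to be tested. Levels are given in CPM, counts scaled to library size. Sucnr1 was at 3.10 ± 1.01 CPM in KO and 59.6 ± 17.4 CPM in control (SD, n = 5 each). Its log2 fold change was -4.26 (standard error, SE, 0.29; edgeR adjusted p = 0.000333). In whole tissue, fewer cells of a type and less RNA per cell cannot be told apart. The adipocyte markers summed to between 37450 and 51930 CPM in KO libraries and between 23780 and 48820 CPM in control libraries, and brown and beige markers to between 18.9 and 28.3 CPM in KO libraries and between 18.1 and 23.3 CPM in control libraries. Ucp1, the uncoupling protein that defines brown and beige adipocytes, had at most 0.107 CPM in KO libraries and at most 0.923 CPM in control libraries. RNA of other tissues differed among libraries of both groups. Markers of epididymis and vas deferens summed to 1653, 6655, 2.91, 282.8 and 53.8 CPM in KO replicates 2 to 6, against 2826, 8334, 36.5, 227.3 and 17840 CPM in control replicates 2 to 6. Markers of testicular germ cells summed to 64.8, 156.4, 24.3, 54.97 and 226.8 CPM in KO replicates 2 to 6, against 57.2, 16.7, 8.79, 15.9 and 387.6 CPM in control replicates 2 to 6. KO replicate 6 stood apart in liver transcripts. Alb, the serum albumin made by hepatocytes, was at 16.9, 18.9, 62.2, 14.01 and 4310 CPM in KO replicates 2 to 6, against 13.1, 8.69, 83.1, 69.7 and 29.6 CPM in control replicates 2 to 6. The 10 hepatocyte markers summed to between 1617 and 8973 CPM in KO libraries and between 908.9 and 3212 CPM in control libraries, with most of the sum from Cyp2e1 in every library except KO replicate 6. Cyp2e1 did not follow Alb, at 3644 CPM in KO replicate 2 and 2950 CPM in KO replicate 6. The sum is therefore no measure of liver RNA in the other libraries. All 10 markers had a positive fold change in KO, 3 at an unadjusted p under 0.05 and none past the adjusted threshold. For Alb, Fga, Fgb, Tat, Apoa1, Ahsg and Ttr, however, the KO median lay below the control median (18.86 against 29.63 CPM for Alb). It lay above the control median for Cyp2e1, Apoc3 and Serpina1a. Endothelial markers were lower in KO in 10 of 10 cases (median log2 fold change -0.29, 3 at an unadjusted p under 0.05, none past the adjusted threshold). They summed to between 652.6 and 867.3 CPM in KO libraries and between 720.3 and 1301 CPM in control libraries. Macrophage markers were lower in 9 of 10 cases (median -0.20, none at an unadjusted p under 0.05), with sums between 947.0 and 1382 CPM in KO libraries and between 947.5 and 1756 CPM in control libraries. The part of these cell types in the values of the complex III, IV and V genes was not tested. Without KO replicate 6, 39 of the 47 genes tested were higher in KO at a median log2 fold change of 0.14.

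None of the complex III, IV and V genes passed the threshold between KO and control. Of the 51 genes, 47 had enough counts to be tested, and none had an adjusted p under 0.05 by edgeR's quasi-likelihood test, where 10 of 16446 genes (0.0608%) passed. None passed with DESeq2 either, where 213 genes (1.30%) passed. The smallest adjusted p among the 47 was 0.446 with edgeR and 0.164 with DESeq2. At an unadjusted p under 0.05, 5 of the 47 were higher in KO and none lower with edgeR, against 5.36% of all genes higher and 4.77% lower. DESeq2 gave 6 higher and none lower. The edgeR count of 5 was 0 without KO replicate 2, KO replicate 4, control replicate 3 or control replicate 6, it was 2 without KO replicate 6 and 3 without control replicate 5, and it was 17 without KO replicate 5. In none of the 47 were the KO and control libraries free of overlap, which was the case for 1.91% of all genes.

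The fold changes of the 47 genes lay mostly on the positive side by small amounts. In KO, 38 of the 47 were higher than in control (80.9%), against 44.8% of all genes tested. Their median log2 fold change was 0.16, against -0.03 over all genes, and their values ran from -0.27 for Atp5g1 to 0.46 for Cox8b. The median SE of a single gene was 0.14, close to the median fold change. With library totals in place of TMM scaling, 34 of the 47 were higher (72.3%), against 33.1% of all genes, and the medians were 0.09 and -0.09. Genes of the same mitochondria in the same libraries vary together, so these counts describe the list and are not independent evidence from 47 genes. By group, all 9 complex III subunits were higher (median 0.27). Of the tested complex IV subunits 11 of 14 were higher (median 0.20), as were 13 of 16 complex V genes (median 0.12). Among the complex IV assembly factors 5 of 8 were higher, with a median of 0.02. Without control replicate 3 the complex IV subunit median was 0.13, and without KO replicate 5 the complex V median was 0.19.

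**Figure D1:**
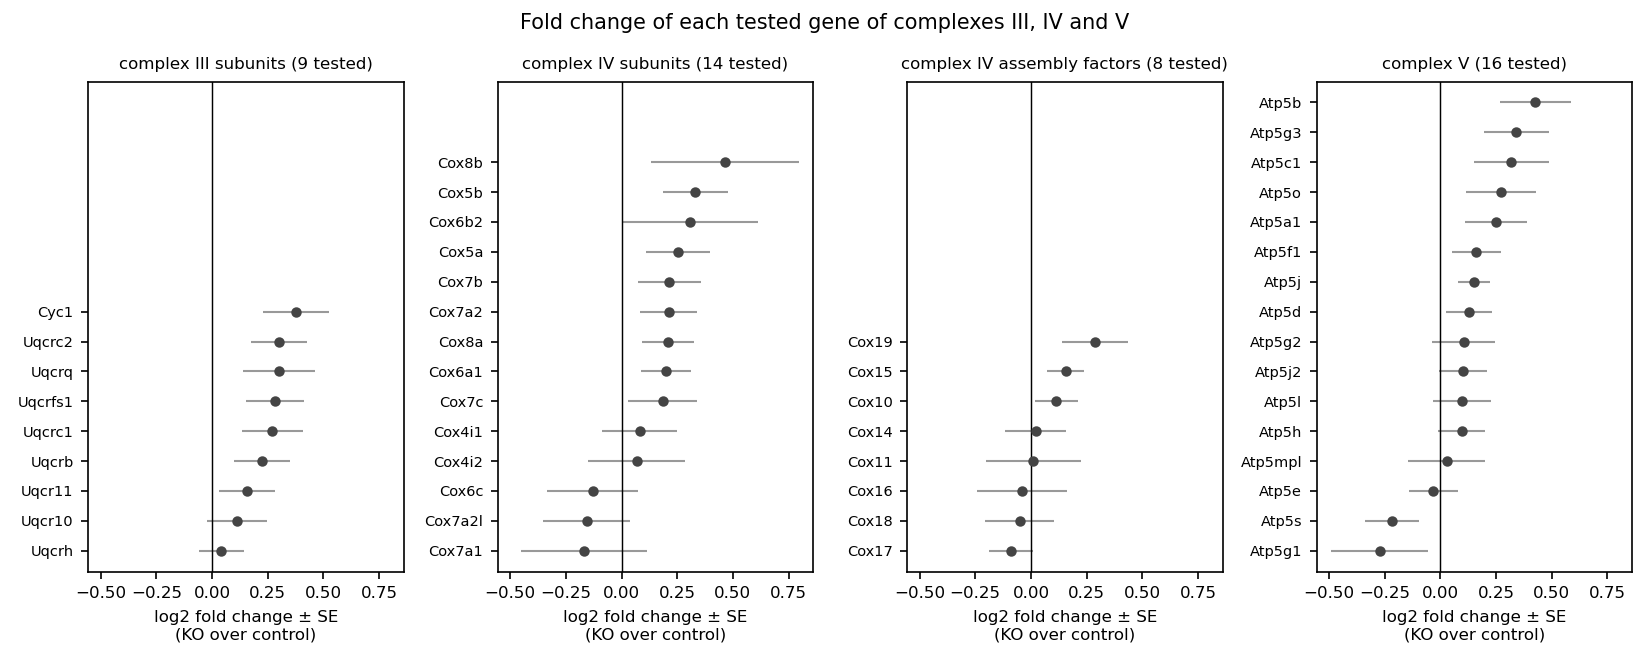
Log2 fold change of KO over control (x axis, log2 units) for each of the 47 tested genes (y axis), by group, with bars of 1 SE on each side. All 9 complex III subunits lie right of 0, none passes the adjusted threshold, and the range runs from -0.27 (Atp5g1) to 0.46 (Cox8b).

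In the edgeR fit with group as the only term, complex III held the genes with the most even direction. Cyc1 (chr15:76343523-76346260 in mm10, plus strand) encodes cytochrome c1, the heme protein that hands electrons to cytochrome c. It stood at 89.4, 68.5, 100.7, 61.1 and 79.9 CPM in KO replicates 2 to 6, against 70.5, 51.98, 69.3, 62.7 and 53.1 CPM in control replicates 2 to 6. KO replicates 2, 4 and 6 lay above every control library, while KO replicates 3 and 5 lay within the control range. The means were 79.9 ± 15.9 CPM in KO and 61.5 ± 8.72 CPM in control (SD, n = 5 each), with a log2 fold change of 0.38 (SE 0.15, unadjusted p = 0.0278, adjusted p = 0.464; edgeR quasi-likelihood test).

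Uqcrc2 (chr7:120635176-120659524, plus strand) and Uqcrc1 (chr9:108936633-108949623, plus strand) encode the core proteins of complex III, which face the matrix. Uqcrc2 stood at 126.5, 101.9, 122.1, 80.7 and 117.7 CPM in KO replicates 2 to 6, against 97.3, 78.4, 98.4, 81.8 and 88.98 CPM in control replicates 2 to 6. 4 of the 5 KO libraries exceeded the highest control library, and KO replicate 5 was below the control median. Its log2 fold change was 0.30 (SE 0.13, unadjusted p = 0.0370, adjusted p = 0.481; edgeR). An exon of Uqcrc2 overlaps Pdzd9 on the other strand, and whether counting used the strand is unknown here. Uqcrc1 stood at 156.9, 116.8, 170.9, 120.0 and 155.5 CPM in KO replicates 2 to 6, against 135.7, 100.8, 134.5, 125.1 and 100.8 CPM in control replicates 2 to 6, so that KO replicates 3 and 5 fell within the control range. The means of Uqcrc1 were 144.0 ± 24.2 CPM in KO and 119.4 ± 17.5 CPM in control (SD, n = 5 each), with a log2 fold change of 0.27 (SE 0.14, unadjusted p = 0.0775, adjusted p = 0.526; edgeR).

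Uqcrfs1 (chr13:30540308-30545362, minus strand) encodes the Rieske iron-sulfur protein, which moves between the coenzyme Q site and cytochrome c1. It stood at 125.9, 95.3, 130.4, 85.9 and 112.4 CPM in KO replicates 2 to 6, against 106.0, 81.1, 98.6, 85.98 and 80.4 CPM in control replicates 2 to 6. As for Cyc1, KO replicates 2, 4 and 6 lay above every control library and the others did not. Its log2 fold change was 0.28 (SE 0.13, unadjusted p = 0.0573, adjusted p = 0.500; edgeR). Uqcrh, the hinge protein that sits beside cytochrome c1, had the smallest fold change of the complex. It stood at 123.1, 117.8, 135.3, 94.9 and 131.0 CPM in KO replicates 2 to 6, against 103.8, 112.2, 127.0, 120.0 and 122.2 CPM in control replicates 2 to 6, and both groups had their bulk in the same range. The log2 fold change of Uqcrh was 0.04 (SE 0.10, unadjusted p = 0.694, adjusted p = 0.889; edgeR), and its sign turned in 4 alternative settings. The remaining small subunits, Uqcrb, Uqcrq, Uqcr10 and Uqcr11, had log2 fold changes from 0.11 (Uqcr10) to 0.30 (Uqcrq), with adjusted p from 0.546 to 0.770 (edgeR).

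Length-scaled levels, in CPM per kilobase of annotated exon over all 10 libraries, differed between subunits of a complex that holds them in equal numbers. In complex III they ran from 133.2 for Uqcr11 down to 18.6 for Uqcrq, with Cyc1 at 32.8. Uqcrh, Uqcr10 and Uqcrb followed Uqcr11 at 96.00, 94.2 and 87.2 CPM per kilobase. Exon lengths are the union of all annotated transcripts, which can exceed the transcript made in fat and then lowers the value.

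**Figure D2:**
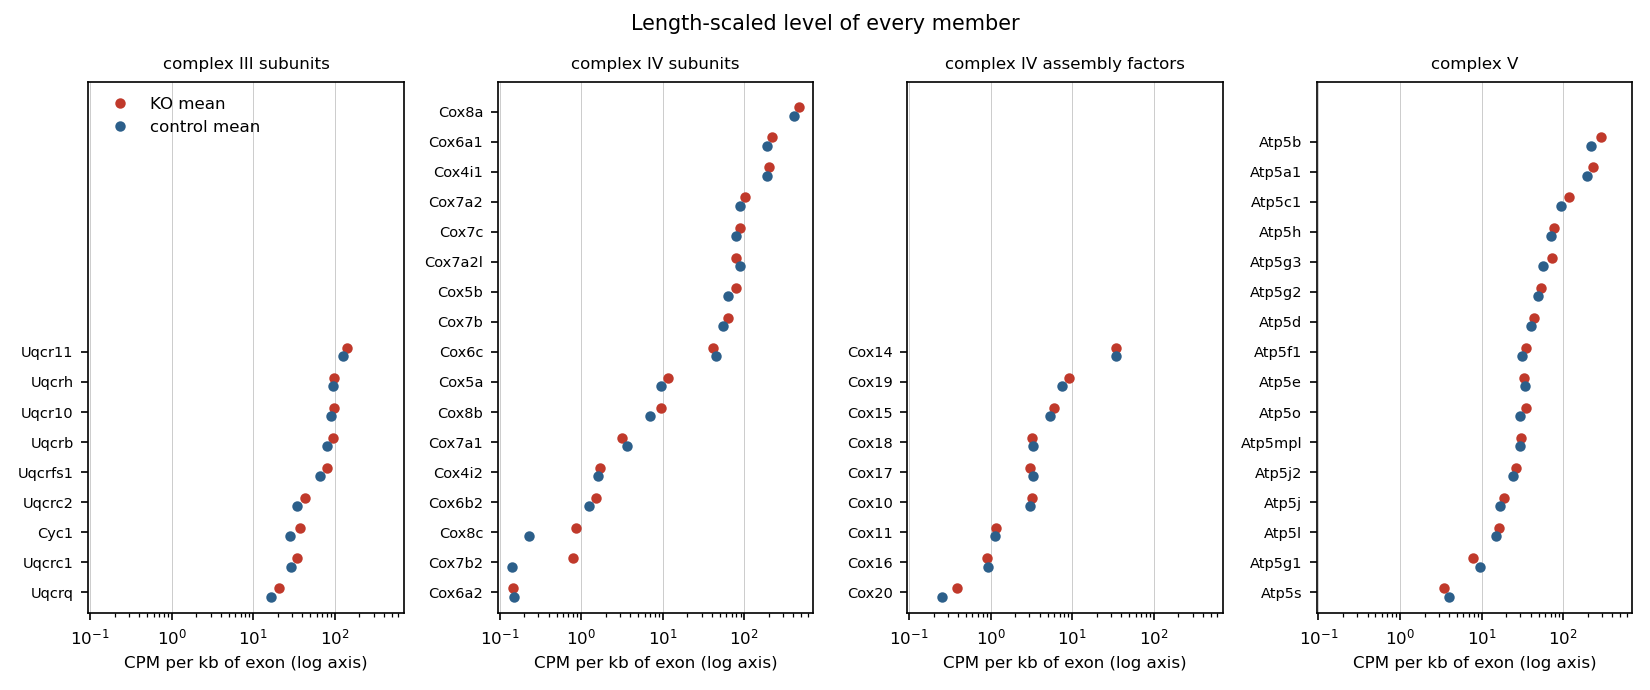
Length-scaled level of each of the 51 genes (x axis, CPM per kilobase of exon, log axis), with the mean of 5 KO libraries in red above the mean of 5 control libraries in blue. The levels over all libraries run from 0.147 (Cox6a2) to 434.8 (Cox8a) CPM per kilobase, and the KO and control points lie close together except for the untested Cox8c, Cox7b2 and Cox20.

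Complex IV subunits were higher in KO in 11 of 14 tested cases, 1 of them at an unadjusted p under 0.05. Cox5b (chr1:36691449-36693681, plus strand), a zinc-binding subunit on the matrix side, stood at 144.2, 114.5, 149.7, 87.4 and 134.2 CPM in KO replicates 2 to 6, against 111.0, 82.4, 109.5, 95.3 and 102.3 CPM in control replicates 2 to 6. As for Uqcrc2, KO replicates 2, 3, 4 and 6 lay above every control library, and KO replicate 5 lay within the controls. Its means were 126.0 ± 25.4 CPM in KO and 100.1 ± 11.7 CPM in control (SD, n = 5 each), with a log2 fold change of 0.33 (SE 0.15, unadjusted p = 0.0480, adjusted p = 0.490; edgeR). Cox5a, the other matrix-side subunit of this name, stood at 26.8, 20.3, 31.4, 17.5 and 24.5 CPM in KO replicates 2 to 6, against 22.1, 19.2, 20.2, 20.01 and 19.5 CPM in control replicates 2 to 6. The control libraries of Cox5a were close together, and the KO libraries spread on both sides of them. Its log2 fold change was 0.25 (SE 0.14, unadjusted p = 0.108, adjusted p = 0.560; edgeR), and an exon overlaps Gm26631 on the other strand.

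The membrane-spanning subunits Cox6a1, Cox7a2, Cox7b, Cox7c and Cox8a had fold changes of similar size. Cox8a (chr19:7215153-7217616, minus strand) stood at 307.8, 284.9, 305.3, 233.0 and 311.6 CPM in KO replicates 2 to 6, against 266.9, 196.3, 280.6, 241.3 and 263.6 CPM in control replicates 2 to 6. The KO libraries other than replicate 5 lay above every control library, and the log2 fold change was 0.21 (SE 0.12, unadjusted p = 0.108, adjusted p = 0.560; edgeR). Cox6a1, whose promoter is printed above, stood at 156.6, 140.6, 167.9, 122.9 and 171.1 CPM in KO replicates 2 to 6, against 142.6, 111.3, 150.4, 133.7 and 122.7 CPM in control replicates 2 to 6. KO replicates 2, 4 and 6 exceeded every control library. The log2 fold changes of Cox6a1, Cox7a2, Cox7b and Cox7c were 0.20, 0.21, 0.21 and 0.18, with adjusted p from 0.560 to 0.691 (edgeR).

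Cox4i1, Cox6c and Cox7a2l differed from these in their control libraries. Cox4i1 (chr8:120668222-120674207, plus strand), the general form of subunit 4, stood at 319.4, 347.9, 325.0, 246.1 and 324.3 CPM in KO replicates 2 to 6, against 256.0, 230.5, 295.4, 268.7 and 426.6 CPM in control replicates 2 to 6. Control replicate 6 was the highest of all 10 libraries, and without control replicate 3, the lowest, the log2 fold change was -0.0023 in place of 0.08. Cox6c, a small membrane subunit, stood at 159.1, 171.4, 141.7, 104.6 and 156.0 CPM in KO replicates 2 to 6, against 138.5, 159.0, 137.5, 120.3 and 246.4 CPM in control replicates 2 to 6, again with control replicate 6 on top. Cox7a2l (chr17:83501918-83517330, minus strand) encodes SCAF1, which joins complex III to complex IV in supercomplexes and has a shortened allele in C57BL/6 strains. It stood at 116.4, 145.5, 111.9, 97.8 and 108.7 CPM in KO replicates 2 to 6, against 121.6, 109.7, 109.4, 102.3 and 203.5 CPM in control replicates 2 to 6. The other 4 control libraries of Cox7a2l lay between 102.3 and 121.6 CPM, and its log2 fold change of -0.16 (SE 0.19) was 0.06 without control replicate 6. Control replicate 6 also had the highest sum of epididymis and germ cell markers and the lowest adipocyte marker score of the 10 libraries, and their part in these levels was not tested. Exons of Cox4i1 and Cox6c overlap Emc8 and Vps13b on the other strand.

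Several complex IV subunits have a second gene that is used in other tissues. Cox8b and Cox7a1 are the forms of heart, skeletal muscle and brown fat, Cox4i2 is known from lung and from mural cells of vessels, and Cox6b2, Cox7b2 and Cox8c are forms of testis and sperm. Cox8b (chr7:140898945-140900446, minus strand) stood at 5.54, 2.77, 2.73, 2.67 and 3.42 CPM in KO replicates 2 to 6, against 1.89, 2.62, 3.37, 3.43 and 1.12 CPM in control replicates 2 to 6. It had the largest fold change of the 47 genes, 0.46 (SE 0.33, unadjusted p = 0.193, adjusted p = 0.641; edgeR), with KO replicate 2 far above the rest of its group. Cox7a1 stood at 1.47, 1.30, 2.16, 1.28 and 2.37 CPM in KO replicates 2 to 6, against 1.58, 2.62, 1.42, 2.64 and 1.40 CPM in control replicates 2 to 6. It had the lowest fold change of complex IV, -0.17 (SE 0.28, unadjusted p = 0.562, adjusted p = 0.833; edgeR), and the groups overlapped in part. Skeletal muscle markers summed to between 80.2 and 90.5 CPM in KO libraries and between 92.01 and 123.1 CPM in control libraries, and their part in Cox7a1 and Cox8b was not tested.

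Cox4i2 and Cox6b2 were tested at levels near 1 CPM. Cox4i2 stood at 1.30, 1.23, 1.40, 1.64 and 1.08 CPM in KO replicates 2 to 6, against 1.58, 0.884, 1.10, 1.62 and 1.16 CPM in control replicates 2 to 6. No library stood apart, and the log2 fold change was 0.07 (SE 0.22, unadjusted p = 0.766, adjusted p = 0.920; edgeR), with a sign that turned in some alternative settings. Pericyte and smooth muscle markers summed to between 661.0 and 802.5 CPM in KO libraries and between 743.9 and 3139 CPM in control libraries, of which control replicate 3 held the highest sum. That sum came mostly from Myh11, Acta2, Cnn1 and Actg2 (1489, 539.9, 245.0 and 218.0 CPM). Rgs5, Pdgfrb, Abcc9 and Kcnj8 (223.4, 113.5, 105.8 and 18.26 CPM) lay there within the range of the other control libraries. The part of mural cells in Cox4i2 was not tested. Cox6b2 stood at 0.946, 1.54, 1.65, 1.74 and 2.57 CPM in KO replicates 2 to 6, against 1.11, 1.61, 1.17, 0.905 and 2.03 CPM in control replicates 2 to 6, with the highest KO and control values both in replicate 6. Its log2 fold change was 0.31 (SE 0.30, unadjusted p = 0.338, adjusted p = 0.733; edgeR).

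The subunit genes Cox6a2, Cox7b2 and Cox8c and the assembly factor Cox20 had too few counts for a test. Cox7b2 had 8, 3, 4, 2 and 46 counts in KO replicates 2 to 6, against 2, 0, 0, 1 and 8 counts in control replicates 2 to 6. Cox8c had 4, 6, 3, 5 and 40 counts in KO replicates 2 to 6, against 4, 0, 2, 0 and 9 counts in control replicates 2 to 6. Both testis forms were thus highest in replicate 6 of each group, the libraries with the highest germ cell marker sums (226.8 CPM in KO replicate 6 and 387.6 CPM in control replicate 6). Between these libraries the order differed, with the higher counts in KO replicate 6 and the higher marker sum in control replicate 6. The single markers were split. Tnp1, Tnp2, Ldhc, Ddx4, Acrv1 and Cyct were higher in KO replicate 6 (Ldhc at 39.67 CPM, against 14.48 CPM in control replicate 6). Odf1, Prm2, Smcp, Pgk2, Akap4, Spata18 and Gapdhs were higher in control replicate 6 (Odf1 at 116.6 CPM, against 14.05 CPM in KO replicate 6). The part of germ cell RNA in these counts was not tested. Cox6a2, the striated muscle form of subunit 6a, had 1 to 4 counts in every library, and Cox20 had 3 to 15.

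The share of an alternative gene within its subunit was measured from length-scaled counts, a quantity that cancels a change common to the genes of that subunit. Cox7a1 made up 3.02 ± 0.59% of the Cox7a1 and Cox7a2 total in KO and 4.06 ± 1.74% in control (SD, n = 5 each; exact two-sided permutation p = 0.302). Cox8b made up 1.99 ± 0.59% of the Cox8a and Cox8b total in KO and 1.72 ± 0.72% in control (SD, n = 5 each; exact two-sided permutation p = 0.540). Cox4i2 had 0.854 ± 0.255% of the Cox4i1 and Cox4i2 total in KO and 0.876 ± 0.296% in control (SD, n = 5 each; exact two-sided permutation p = 0.937). Cox6a2, from 1 to 4 counts a library, had 0.0676 ± 0.0308% in KO and 0.0795 ± 0.0250% in control (SD, n = 5 each; exact two-sided permutation p = 0.516). The groups overlapped for each of these shares, and the highest share of an alternative gene in any library was 6.08%, for Cox7a1 in control replicate 3.

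The c subunit, which forms the rotating ring of ATP synthase, is encoded by Atp5g1, Atp5g2 and Atp5g3, whose mature proteins are the same and whose import sequences differ. Atp5g3 held the largest share, 53.8 ± 3.8% in KO and 49.4 ± 6.1% in control (SD, n = 5 each; exact two-sided permutation p = 0.246). Atp5g2 held 40.3 ± 3.0% in KO and 42.5 ± 4.4% in control (SD, n = 5 each; exact two-sided permutation p = 0.429). Atp5g1 held 5.67, 7.07, 4.96, 5.46 and 6.38% in KO replicates 2 to 6, against 7.62, 9.35, 6.01, 6.31 and 11.2% in control replicates 2 to 6. The shares of Atp5g1 overlapped between the groups, and control replicates 3 and 6 were the highest of the 10. The difference was -2.19 percentage points (exact two-sided permutation p = 0.0635 over 252 assignments, of which the smallest possible is 0.00794). It was -4.55 percentage points with no length scaling, and -0.74 percentage points without control replicates 3 and 6. The annotated exon lengths were 4912 bases for Atp5g1, 1675 for Atp5g2 and 2181 for Atp5g3. Where such a length exceeds the transcript made in fat, the share of that gene is too low. After Benjamini-Hochberg adjustment over the 7 shares, the adjusted exact permutation p was 0.444 for Atp5g1 and from 0.630 to 0.937 for the other 6. Atp5g2 and Atp5g3 together supplied most of the c-subunit total in every library.

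**Figure D3:**
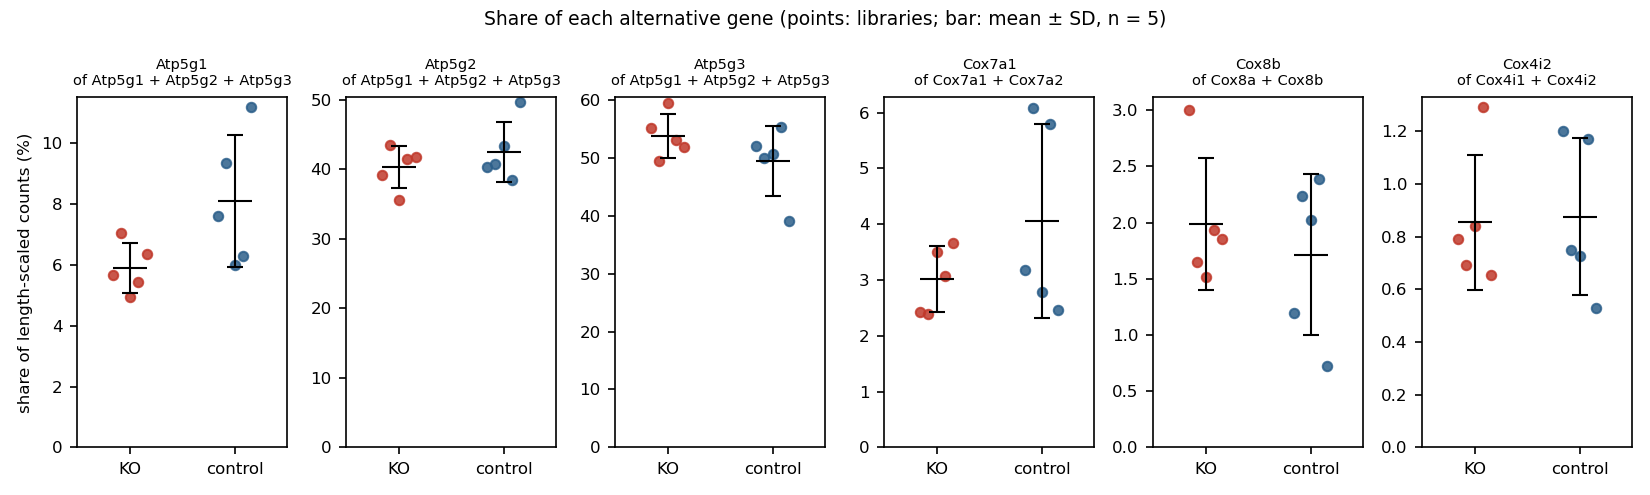
Share of 6 alternative genes in the length-scaled counts of their subunit (y axis, percent, from 0), with 1 point per library, 5 KO libraries in red left of 5 control libraries in blue, and the mean ± SD in black. The groups overlap in every panel, and control replicate 6 has the highest Atp5g1 share (11.2%).

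Assembly factors of complex IV, which insert heme and copper or help the core subunits into the membrane, did not lean in 1 direction. Cox19, one of the copper-handling proteins of the space between the membranes, had the smallest p of the group. It stood at 33.2, 29.8, 37.2, 33.6 and 36.4 CPM in KO replicates 2 to 6, against 29.6, 23.9, 30.99, 35.4 and 19.6 CPM in control replicates 2 to 6. Control replicates 6 and 3 were the lowest of the 10 libraries, and the log2 fold change was 0.29 (SE 0.15, unadjusted p = 0.0805, adjusted p = 0.530; edgeR). Cox15, the heme A synthase, stood at 30.6, 26.7, 33.95, 28.5 and 27.9 CPM in KO replicates 2 to 6, against 28.2, 23.9, 24.9, 27.4 and 28.1 CPM in control replicates 2 to 6, with a log2 fold change of 0.16 (SE 0.08, unadjusted p = 0.0874, adjusted p = 0.536; edgeR). Cox10, which makes the heme O that Cox15 uses, stood at 9.07, 9.55, 10.8, 9.85 and 10.3 CPM in KO replicates 2 to 6, against 8.69, 10.7, 9.54, 9.01 and 7.89 CPM in control replicates 2 to 6. All Cox10 libraries lay within a narrow span, and its log2 fold change was 0.11 (SE 0.10, unadjusted p = 0.268, adjusted p = 0.693; edgeR).

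Cox17, the copper chaperone that feeds the copper sites of complex IV, had the lowest fold change of the assembly factors. It stood at 16.01, 15.3, 18.4, 21.7 and 17.2 CPM in KO replicates 2 to 6, against 18.8, 17.3, 18.6, 19.4 and 20.1 CPM in control replicates 2 to 6. KO replicate 5, low for most subunits, was the highest of the 10 libraries for Cox17, and the log2 fold change was -0.09 (SE 0.10, unadjusted p = 0.380, adjusted p = 0.749; edgeR). Exons of Cox17, Cox10 and Cox15 overlap other annotated genes, for Cox17 on the same strand. The other tested factors, Cox11, Cox14, Cox16 and Cox18, had log2 fold changes from -0.05 (Cox18) to 0.02 (Cox14), with adjusted p from 0.913 to 0.989 (edgeR). Per kilobase of exon, Cox14 stood highest at 34.3 CPM, and Cox20, whose exon overlaps Hnrnpu, lowest at 0.321 CPM.

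In complex V, the highest fold change belonged to the catalytic head. Atp5b (chr10:128083273-128090391, plus strand) encodes the beta subunit, which holds the catalytic sites. It stood at 1373, 1114, 1480, 949.7 and 1294 CPM in KO replicates 2 to 6, against 997.3, 742.0, 1129, 970.3 and 783.3 CPM in control replicates 2 to 6. KO replicates 2, 4 and 6 lay above every control library, and KO replicate 5 below control replicates 2, 4 and 5. The means of Atp5b were 1242 ± 211.1 CPM in KO and 924.4 ± 160.0 CPM in control (SD, n = 5 each), and it had the smallest p of the 47 genes, with a log2 fold change of 0.43 (SE 0.16, unadjusted p = 0.0235, adjusted p = 0.446; edgeR).

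Atp5a1, the alpha subunit that alternates with beta in the head, stood at 785.4, 618.9, 895.1, 587.2 and 736.4 CPM in KO replicates 2 to 6, against 698.2, 528.6, 652.3, 643.0 and 525.0 CPM in control replicates 2 to 6. KO replicates 2, 4 and 6 were again above every control library, and the log2 fold change was 0.25 (SE 0.14, unadjusted p = 0.107, adjusted p = 0.559; edgeR). An exon of Atp5a1 overlaps Haus1 on the other strand. Atp5c1, the gamma subunit that forms the turning shaft, stood at 252.9, 217.8, 265.1, 145.5 and 236.3 CPM in KO replicates 2 to 6, against 185.4, 143.9, 221.0, 165.8 and 180.2 CPM in control replicates 2 to 6, with KO replicate 5 next to the lowest control library. The log2 fold change of Atp5c1 was 0.32 (SE 0.17, unadjusted p = 0.0871, adjusted p = 0.536; edgeR). Per kilobase of exon, Atp5b, Atp5a1 and Atp5c1 were the highest of complex V at 255.7, 212.8 and 105.6 CPM. The small head subunits Atp5d and Atp5e had log2 fold changes of 0.13 (SE 0.10) and -0.03 (SE 0.11).

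Of the 3 genes of the c ring, 2 had a positive and 1 a negative fold change. Atp5g3 (chr2:73908447-73911326, minus strand) stood at 175.9, 135.4, 204.8, 115.4 and 156.9 CPM in KO replicates 2 to 6, against 136.1, 113.9, 135.8, 125.0 and 111.7 CPM in control replicates 2 to 6. KO replicates 2, 4 and 6 exceeded every control library and KO replicate 5 lay near the bottom of the control range. Its log2 fold change was 0.34 (SE 0.15, unadjusted p = 0.0417, adjusted p = 0.487; edgeR). Atp5g2 stood at 96.05, 91.3, 94.4, 69.4 and 97.2 CPM in KO replicates 2 to 6, against 81.2, 71.4, 89.03, 66.8 and 108.7 CPM in control replicates 2 to 6, with a log2 fold change of 0.10 (SE 0.14, unadjusted p = 0.482, adjusted p = 0.797; edgeR). Atp5g1 (chr11:96068852-96075670, minus strand) stood at 40.7, 43.5, 38.5, 26.7 and 43.5 CPM in KO replicates 2 to 6, against 44.9, 48.02, 36.3, 32.1 and 71.9 CPM in control replicates 2 to 6. Control replicate 6 was the highest of the 10 libraries and KO replicate 5 the lowest. The log2 fold change of Atp5g1 was -0.27 (SE 0.22, unadjusted p = 0.239, adjusted p = 0.674; edgeR), the lowest of the 47 genes, and it was 0.03 without control replicates 3 and 6.

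The outer stalk, which holds the head still, and the small membrane subunits had log2 fold changes between 0.03 and 0.27. Atp5j, coupling factor 6 of the stalk, stood at 62.6, 57.4, 64.9, 49.9 and 60.2 CPM in KO replicates 2 to 6, against 55.6, 50.8, 52.9, 53.9 and 52.5 CPM in control replicates 2 to 6. Its control libraries spanned 50.75 to 55.57 CPM, and 4 of the 5 KO libraries lay above them. The log2 fold change was 0.15 (SE 0.07, unadjusted p = 0.0630, adjusted p = 0.507; edgeR), the next smallest p of complex V after Atp5b and Atp5g3, and an exon overlaps Gabpa on the other strand. The stalk genes Atp5o, Atp5f1 and Atp5h had log2 fold changes of 0.27, 0.16 and 0.10, with adjusted p from 0.569 to 0.753 (edgeR). The counted Atp5o identifier shares exons with the second identifier of that name. The membrane subunits Atp5j2, Atp5l and Atp5mpl had log2 fold changes of 0.10, 0.10 and 0.03. Atp5s, the coupling factor B, had -0.22 (SE 0.12) and the lowest level of complex V, 3.75 CPM per kilobase.

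The libraries within a group also differed. The 47 tested genes summed to 6094, 5316, 6510, 4376 and 5950 CPM in KO replicates 2 to 6, against 5053, 4117, 5295, 4753 and 4975 CPM in control replicates 2 to 6. KO replicate 5 was the lowest of the KO libraries for 37 of the 47 tested genes, and KO replicate 4 the highest for 24. Control replicate 3 was the lowest control library for 28, and control replicate 6 the highest for 15. The median deviation of the 47 genes from their mean over all libraries was 0.17, 0.02, 0.25, -0.27 and 0.19 log2 units in KO replicates 2 to 6. In control replicates 2 to 6 it was -0.01, -0.29, 0.01, -0.13 and -0.09 log2 units. Without KO replicate 5 the median fold change of the 48 genes then tested was 0.22, with none past the adjusted threshold (edgeR).

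**Figure D4:**
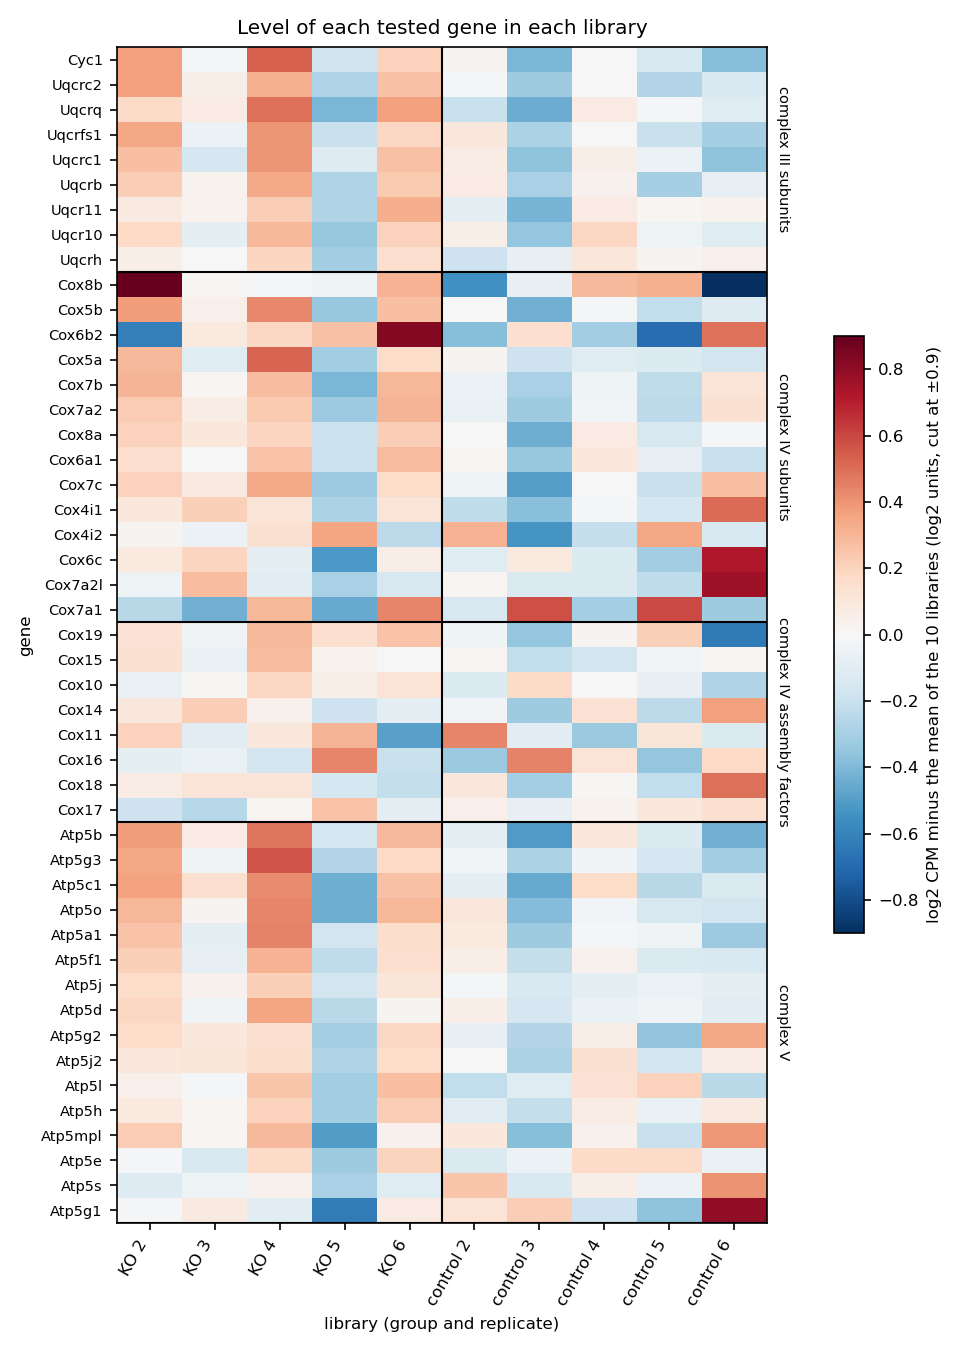
Level of each of the 47 tested genes (rows, by group and fold change) in each library (columns, 5 KO left of 5 control), as log2 CPM minus the mean of the 10 libraries, with colours cut at 0.9 log2 units. KO replicate 5 and control replicate 3 are low in most rows, and control replicate 6 is high for Atp5g1, Cox7a2l and Cox6c and low for Cox19 and Atp5b.

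Control replicate 6 held genes at both ends of the range. It was the highest of all 10 libraries for 9 of the 47 genes (Atp5g1, Atp5g2, Atp5mpl, Atp5s, Cox14, Cox18, Cox4i1, Cox6c and Cox7a2l) and the lowest for 7 (Atp5a1, Atp5g3, Cox10, Cox19, Cox8b, Uqcrc1 and Uqcrfs1). Its marker sum for epididymis and vas deferens was the highest of the 10 libraries. KO replicate 3 and control replicate 3 came next in that sum, and control replicate 3 was the highest of all libraries for 1 gene and KO replicate 3 for none. KO replicate 3 came next after control replicate 6 for Cox4i1, Cox6c, Cox7a2l and Cox14 (347.9, 171.4, 145.5 and 28.65 CPM). It did not for Atp5g1, Atp5g2, Atp5mpl, Atp5s and Cox18. The sum of control replicate 3 came mostly from the markers Akr1b7 and Crisp1 (5106 and 2715 CPM), with Lcn5 at 0.461 and Adam7 at 0.115 CPM. KO replicate 3 and control replicate 6 held Lcn5 at 585.8 and 2055 CPM, and Adam7 at 983.4 and 3088 CPM. The part of RNA from other tissues in these levels was not tested.

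Adipocyte markers also differed among libraries. Of the 20 markers, 19 were higher in KO, none of them past the adjusted threshold. Their fold changes had a median of 0.38 log2 units. The lowest were Aqp7, Cd36 and Adipoq (-0.18, 0.10 and 0.12), and the highest were Gpd1, Acsl1 and Thrsp (0.95, 0.81 and 0.79). The mean log2 CPM of the 20 markers was 10.37, 9.93, 10.49, 10.17 and 10.36 in KO replicates 2 to 6, against 10.11, 9.49, 10.19, 10.12 and 9.28 in control replicates 2 to 6. The score was thus lowest in control replicates 6 and 3 and highest in KO replicate 4, and KO replicate 5, the lowest KO library for 37 of the 47 genes, lay above KO replicate 3. Across the 10 libraries, 36 of the 47 genes had a positive Pearson correlation of their log2 CPM with this score, and 7 passed after Benjamini-Hochberg adjustment over the 47 relations, all positive. With Spearman's rho 9 passed, all positive, and they included these 7. Each gene and the score come from the same library and share its depth and scaling, and no correlation was computed within the groups, which hold 5 libraries each.

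Uqcrc1 followed the score with r = 0.922 (permutation p = 3e-05, adjusted 0.00141) and rho = 0.915 (permutation p = 0.00046, adjusted 0.0216), and r was 0.931 without control replicates 6 and 3, the libraries farthest from the median score. Atp5b had r = 0.885 (permutation p = 0.00041, adjusted 0.00587) and rho = 0.867 (permutation p = 0.00208, adjusted 0.0233), with r = 0.778 without those libraries. Cox19 had r = 0.955 (permutation p = 0.0002, adjusted 0.0047) and rho = 0.842 (permutation p = 0.00368, adjusted 0.0233), with r = 0.746 without them. These 3 genes thus ranked the libraries nearly as the markers did. For Atp5a1, Cyc1, Cox6a1 and Uqcrfs1, r ran from 0.797 to 0.874 (adjusted permutation p from 0.00587 to 0.0301) and rho from 0.842 to 0.879 (adjusted permutation p = 0.0233 each). Their r without the same libraries ran from 0.715 to 0.84. The lowest values belonged to Atp5g1, Cox7a2l and Cox6c at r = -0.678, -0.666 and -0.628, none past the adjustment, and at 0.051, -0.441 and 0.055 without control replicates 6 and 3.

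**Figure D5:**
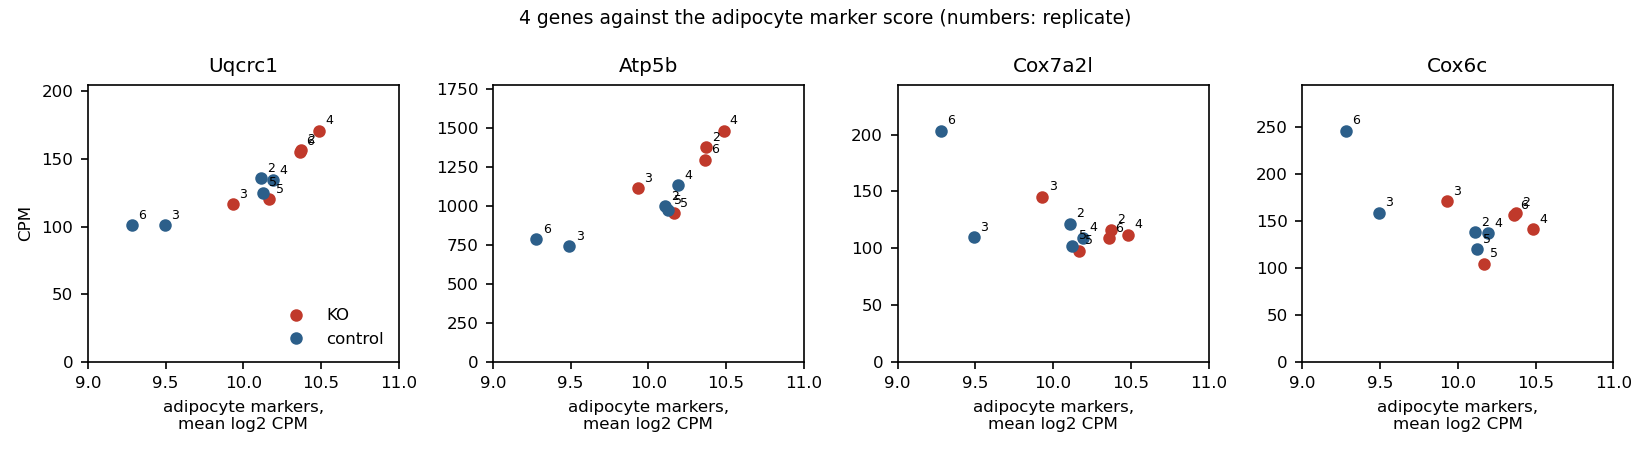
CPM of 4 genes (y axes, from 0) against the mean log2 CPM of 20 adipocyte markers (x axis) in 5 KO libraries (red) and 5 control libraries (blue), each point numbered by replicate. Uqcrc1 and Atp5b are higher where the score is higher, and Cox7a2l and Cox6c are highest in control replicate 6, which has the lowest score (9.28).

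With this score as a covariate in the edgeR fit, 38 of 47 genes were higher in KO, their median was 0.08 in place of 0.16 and none had an unadjusted p under 0.05. The median of complex III was 0.08 with the score in the fit and 0.27 without it, that of the complex IV subunits 0.17 and 0.20, and that of complex V 0.05 and 0.12. With the score 7 of 9 complex III genes were higher, in place of 9. The complex IV subunits had 12 of 14 higher in place of 11, the assembly factors 6 of 8 in place of 5, and complex V 13 of 16 both times. Without control replicates 3 and 6, 41 of the 48 genes tested were higher, with a median of 0.12 and none at an unadjusted p under 0.05. The score cannot tell adipocyte number from RNA per adipocyte, so how far adipocyte content enters the differences was not tested.

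The other genes of the respiratory chain were listed by function. The 6 mitochondrially encoded genes of complexes III, IV and V were higher in KO in 5 cases, at a median of 0.12 log2 units, none past the threshold. mt-Co1, the catalytic subunit of complex IV, averaged 16570 ± 1981 CPM in KO and 15380 ± 1707 CPM in control (SD, n = 5 each), and its log2 fold change was 0.11 (SE 0.15, unadjusted p = 0.492, adjusted p = 0.801; edgeR). mt-Co3 was the exception at -0.10 (SE 0.17, unadjusted p = 0.573, adjusted p = 0.839), with means of 5505 ± 799.7 CPM in KO and 5889 ± 1077 CPM in control (SD, n = 5 each). For mt-Cytb, mt-Co2, mt-Atp6 and mt-Atp8 the log2 fold changes were 0.13, 0.14, 0.18 and 0.12.

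Complex I, which feeds electrons from NADH into coenzyme Q, had 30 of 34 tested genes higher in KO with a median of 0.16, and complex II had all 4 genes higher with a median of 0.29. No gene of either passed the adjusted threshold. Ndufa10 of complex I averaged 127.1 ± 25.9 CPM in KO and 99.05 ± 12.4 CPM in control (SD, n = 5 each), and its log2 fold change was 0.36 (SE 0.15, unadjusted p = 0.0363, adjusted p = 0.480; edgeR). Sdha, the succinate-oxidising subunit of complex II, averaged 472.6 ± 52.5 CPM in KO and 361.4 ± 61.6 CPM in control (SD, n = 5 each), and its log2 fold change was 0.39 (SE 0.13, unadjusted p = 0.0150, adjusted p = 0.436; edgeR). The median of complex III, 0.27, lay beside that of complex II, and those of the complex IV subunits and complex V beside that of complex I. The difference between complexes was not tested.

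Assembly factors outside the naming rule had medians near 0. For complex III, 5 of 6 were higher (median 0.05), for complex IV 7 of 14 (median 0.01), and for complex V and its regulators 3 of 5 (median 0.08), with no gene called. Pet100, which acts in complex IV assembly, stood at 8.41, 9.24, 12.6, 10.7 and 12.1 CPM in KO replicates 2 to 6, against 13.4, 14.3, 12.8, 14.8 and 14.1 CPM in control replicates 2 to 6. The lowest control library lay above the highest KO library, and the log2 fold change was -0.39 (SE 0.12, unadjusted p = 0.00834, adjusted p = 0.400; edgeR). Fastkd2 and Coa7, of the same list, had log2 fold changes of -0.22 and 0.21, with adjusted p of 0.451 and 0.490 (edgeR). Atpif1, the inhibitor that stops the ATP synthase from running in reverse, stood at 17.8, 34.2, 15.8, 17.5 and 17.1 CPM in KO replicates 2 to 6, against 22.99, 33.8, 16.5, 17.5 and 55.05 CPM in control replicates 2 to 6. Control replicate 6 was again the highest library, and replicates 3 of both groups came next, with a log2 fold change of -0.51 (SE 0.36, unadjusted p = 0.189, adjusted p = 0.638; edgeR). Atpaf1, which assembles the head, and Usmg5, a small membrane subunit, had log2 fold changes of 0.14 and -0.11.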

How the data were processed

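For 5 KO and 5 control libraries of total RNA, the authors deposited whole-number counts for each Ensembl gene, not normalized, in columns named by sample title. TRIzol extraction, DNase treatment and a stranded total RNA kit are given per the labels' protocols, and STAR 2.5.2 with mm10 per the submitters' processing notes. Counting program, annotation and strand setting are unknown here, so the 19 genes whose exons overlap another gene (4 on the same strand, 16 on the other) are uncertain. GENCODE M21 gave symbols for 26008 of 26040 identifiers. The 2760 genes with no count stayed untested.

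Counts were fitted in R 4.3.3 with edgeR 4.0.16 (robust quasi-likelihood test, group as the only term). Genes were kept by filterByExpr (minimum count 10, minimum total 15) and libraries were scaled by TMM. P-values were adjusted over 16446 genes by the Benjamini-Hochberg method, threshold 0.05. CPM uses scaled library sizes, log2 CPM a prior count of 2. The SE was taken as the fold change over the square root of F. Dispersion gave a biological coefficient of variation of 0.412 across genes. No pair of libraries agreed within sampling noise. Marker correlations used 100000 permutations.

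Named were, per group, the 4 genes with the smallest p and those with the highest and lowest fold change, core subunits, alternative genes, untested genes and up to 3 genes of each other list. The remaining members appear by value in ranges. The members and lists were chosen with earlier results of these data known. Alternatives were other scalings, filters, DESeq2 1.42.0, limma-voom 3.58.1, the adipocyte score as covariate, a replicate block and libraries left out.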

Additional observations from a re-analysis of the deposited data

Results flagged for a closer look

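In 86 groups of 5 libraries, the highest or the lowest library was compared with the rest, and 8 stood apart by Dixon's criterion, which chance meets in about 1 of 20 groups. KO replicate 5 was low for Atp5g2 (69.4 CPM, the other KO libraries at 91.3 to 97.22) and for Cox4i1 (246.1 CPM, the others at 319.4 to 347.9). Control replicate 6 was high for Cox7a2l (203.5 CPM, the other controls at 102.3 to 121.6).

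Genes of low level made up the rest. Cox7b2, a testis form of subunit 7b, reached 1.557 CPM in KO replicate 6 (the other KO libraries at most 0.2803) and 0.2805 CPM in control replicate 6 (the other controls at most 0.0673). Cox8c, a testis form of subunit 8, reached 1.354 CPM in KO replicate 6 (the others at most 0.205). Cox8b reached 5.536 CPM in KO replicate 2 (the others at 2.667 to 3.419), and its share of the Cox8a and Cox8b total was 3.0% there (the others at 1.516 to 1.93%). KO replicate 2 also had the highest brown and beige marker sum, 28.28 CPM, with Ucp1 at 0 counts in that library. Ppargc1a, Prdm16 and Cidea gave 16.19, 7.253 and 3.013 CPM of that sum. Ppargc1a was nearly as high in KO replicate 3 (15.85 CPM), where Cox8b was at 2.773 CPM. The part of beige adipocytes in the Cox8b level was not tested.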

How the results depend on the processing

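None of the tested genes was called in any of the 23 fits, including the replicate block. The 10 genes called over the whole table became 213 with DESeq2, 4 with the replicate block, 6 without control replicates 3 and 6, 4 without KO replicate 6 and control replicate 3, and 3 to 18 with single libraries left out, where leaving out control replicate 4 gave 8. The labels do not say whether a shared replicate number marks a pair. Deviations of same-numbered libraries correlated at 0.377, -0.113, 0.632, 0.436 and -0.096 for replicates 2 to 6. Those of differently numbered libraries correlated at -0.734 to 0.78, and these values do not settle whether the libraries are paired. With the replicate block, 38 of 47 genes were higher at a median of 0.15, 9 of them at an unadjusted p under 0.05, against 5 without it. The complex IV assembly factor median (0.02) was -0.0428 with library totals, 0.1064 without KO replicate 6 and control replicate 3, and -0.0085 to 0.0823 with single libraries left out. The medians of the other 3 groups kept their direction in all 22 alternatives but not their size. Without KO replicate 6 and control replicate 3, complex III was at 0.18, complex IV subunits at 0.10 and complex V at 0.07, and 35 of 47 genes were higher (median 0.11), none at an unadjusted p under 0.05.

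Of 28 named genes, 23 kept their direction in every alternative and 5 did not. Atp5g1 was 0.0849 with the adipocyte score and 0.0255 without control replicates 3 and 6. Cox4i1 was -0.0094 without KO replicate 6 and control replicate 3, and -0.0023 to 0.2459 with single libraries left out. Cox4i2 was -0.0894 with the score, -0.1138 without control replicates 3 and 6, and -0.0425 to 0.1707 with single libraries left out. Cox7a2l was 0.1661 with the score, 0.0566 without control replicates 3 and 6, and -0.2506 to 0.0627 with single libraries left out. Uqcrh was -0.0215 with library totals, -0.0023 with the score, -0.0058 without KO replicate 6 and control replicate 3, and -0.0045 to 0.1133 with single libraries left out. The Cox4i2 share difference was -0.1312 to 0.05916 percentage points with single libraries left out, and the other 6 shares kept their direction. The cause of these turns was not tested. The median SE of a single gene was 0.14 beside a median fold change of 0.16, so a missed threshold does not show equal levels.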

Other observations

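Regulators of mitochondrial gene expression were higher in KO in 11 of 15 tested cases (median log2 fold change 0.10), and none passed the adjusted threshold. Ppargc1b, a coactivator that raises expression of respiratory genes, stood at 15.8, 19.3, 15.4, 19.6 and 18.9 CPM in KO replicates 2 to 6, against 11.2, 10.7, 11.9, 12.6 and 7.92 CPM in control replicates 2 to 6. The lowest KO library lay above the highest control library, and the log2 fold change was 0.71 (SE 0.13, unadjusted p = 0.000286, adjusted p = 0.221; edgeR). Ppara, a nuclear receptor for fatty acid oxidation genes, stood at 14.9, 13.8, 18.9, 17.5 and 26.1 CPM in KO replicates 2 to 6, against 9.59, 10.2, 9.54, 13.9 and 6.42 CPM in control replicates 2 to 6. Its groups overlapped through 1 control library, and the log2 fold change was 0.88 (SE 0.22, unadjusted p = 0.00272, adjusted p = 0.360; edgeR). Esrra, the receptor that works with these coactivators on respiratory gene promoters, stood at 39.4, 31.7, 43.8, 35.1 and 34.6 CPM in KO replicates 2 to 6, against 28.9, 30.3, 25.1, 32.2 and 29.7 CPM in control replicates 2 to 6, with a log2 fold change of 0.34 (SE 0.10, unadjusted p = 0.00710, adjusted p = 0.400; edgeR).

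Coenzyme Q, which carries electrons into complex III, is made by the Coq enzymes. Of 13 tested genes of electron carriers and coenzyme Q synthesis, 11 were higher in KO (median 0.10), none past the adjusted threshold. Coq8a, a kinase-like protein needed for the synthesis complex, stood at 65.5, 57.6, 61.1, 42.7 and 63.5 CPM in KO replicates 2 to 6, against 41.2, 33.3, 49.1, 40.6 and 29.8 CPM in control replicates 2 to 6. KO replicates 2, 3, 4 and 6 lay above every control library, and the log2 fold change was 0.58 (SE 0.15, unadjusted p = 0.00345, adjusted p = 0.360; edgeR). Coq9, which presents the lipid to the synthesis enzymes, and Coq10a, which binds finished coenzyme Q, had log2 fold changes of 0.36 and 0.18.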
